A study of Mus musculus with 18 samples.

Results

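Fast and slow skeletal muscle fibers build the same contractile apparatus from different genes, and 10 of these genes were followed in bulk RNA-seq of mouse dorsal root ganglia (DRG). The genes were taken by symbol from the 36737 genes of the deposited table. They comprised 6 genes of fast fibers (Myh1, Myh2, Myh4, Tnnt3, Tnni2 and Tnnc2) and 4 of slow fibers (Myh7, Tnnt1, Tnni1 and Tnnc1). Lower values of muscle genes in fracture plus PDX than in fracture mice, seen in these same libraries, led to the choice, so the members' differences in that contrast are given as a description, without p-values. L3–L5 DRGs were taken from adult CD1 mice, an outbred stock. The mice had a sham operation, a tibial fracture treated with vehicle (fracture), or a tibial fracture treated with the lipid mediator protectin DX (fracture plus PDX). There were 6 mice per group, of which 3 were female, in each of the 3 groups, and every mouse gave 1 poly(A) library. The fracture groups were sampled on day 3, and the day of the sham mice and the PDX dose of this experiment were not given in the sources used here.

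Muscle contracts when myosin heavy chains pull on actin filaments, and the 3 troponin subunits on the actin filament decide when they may do so. Troponin C binds calcium, troponin I holds the filament off, and troponin T ties the complex to tropomyosin. Slow fibers carry the myosin encoded by Myh7, and fast fibers carry those of Myh2 (IIa), Myh1 (IIx) or Myh4 (IIb, the fastest in the mouse). Each troponin subunit has a fast gene (Tnnt3, Tnni2, Tnnc2) and a slow gene (Tnnt1, Tnni1, Tnnc1), and heart muscle also uses Myh7 and Tnnc1. Skeletal muscle fibers are not a component of the ganglion, and most limb and trunk muscles of the mouse are built largely of fast fibers. The comparison therefore asked which fiber type the muscle reads of these DRG libraries resembled.

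Because reads of close relatives can be exchanged in counting, the coding sequences of the members were compared first (GENCODE M21, GRCm38, the longest complete coding sequence of each gene). Myh2, Myh1 and Myh4 lie next to each other on the plus strand of chromosome 11, from 67171027 to 67197517, from 67200052 to 67224575 and from 67238029 to 67260446. Their coding sequences were identical at 90.3% of aligned bases for Myh4 and Myh1, 88.2% for Myh4 and Myh2 and 91.1% for Myh1 and Myh2, and the longest run that Myh1 and Myh2 shared was 268 bases. Of all stretches of 50 coding bases, 24.0% of those of Myh1, 23.2% of those of Myh2 and 13.8% of those of Myh4 occurred unchanged in another of the 4 myosins. For stretches of 100 bases the shares were lower, at 9.31%, 8.22% and 2.64% in the same order. The split of reads among these 3 fast myosins is therefore uncertain in part. Myh7, on the minus strand of chromosome 14 from 54970684 to 54994626, shared 78.3% to 78.7% of aligned bases with the fast myosins, and only 0.226% of its 50-base stretches occurred in them. Its closest relative in this respect was Myh6, the heart myosin, with 91.8% identity and 23.9% of the 50-base stretches of Myh7. The troponin pairs were further apart, with 71.3% to 72.1% identity and longest shared runs of 16 to 22 bases, so no 50-base stretch was shared within a pair.

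The stretches below show this for the 120 coding bases, within 1 exon, at which Myh1 and Myh2 differ least from Myh4. Capitals mark bases that differ from Myh4. The stretch lies at chr11:67252224-67252343 in exon 23 of Myh4, at chr11:67213605-67213724 in exon 24 of Myh1, at chr11:67188704-67188823 in exon 23 of Myh2 and, on the minus strand, at chr14:54983257-54983376 in exon 25 of Myh7. Myh1 and Myh2 each differed from Myh4 at 1 of the 120 bases and Myh7 at 19.
Myh4: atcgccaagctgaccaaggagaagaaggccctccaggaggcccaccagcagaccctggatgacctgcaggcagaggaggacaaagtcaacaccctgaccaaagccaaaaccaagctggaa
Myh1: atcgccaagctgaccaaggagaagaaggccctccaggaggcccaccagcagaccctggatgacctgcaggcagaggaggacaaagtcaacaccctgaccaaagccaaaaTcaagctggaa
Myh2: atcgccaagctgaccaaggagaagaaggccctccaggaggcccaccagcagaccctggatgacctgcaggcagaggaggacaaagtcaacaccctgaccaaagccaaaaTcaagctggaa
Myh7: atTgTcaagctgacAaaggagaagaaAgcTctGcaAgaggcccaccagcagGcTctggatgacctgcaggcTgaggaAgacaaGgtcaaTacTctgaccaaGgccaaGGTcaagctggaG

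For troponin C the closest stretch of the same length is shown with capitals at bases that differ from Tnnc2. It lies at chr2:164777479-164777598 (minus strand, exon 5) in Tnnc2 and at chr14:31211290-31211409 (plus strand, exon 5) in Tnnc1, and 37 of the 120 bases differed.
Tnnc2: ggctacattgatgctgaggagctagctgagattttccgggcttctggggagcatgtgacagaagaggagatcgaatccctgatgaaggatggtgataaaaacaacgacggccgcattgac
Tnnc1: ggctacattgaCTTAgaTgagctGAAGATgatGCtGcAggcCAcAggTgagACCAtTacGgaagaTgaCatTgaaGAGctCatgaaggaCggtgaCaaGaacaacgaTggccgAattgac

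Promoters of 8 of the 10 members were found by symbol in RefSeq's table (GRCm38.p6, 250 bases before to 50 bases from each start), with 10 start sites in all, and those of Tnni2 and Tnnt3 were not analysed here. The promoters of Myh4 and Tnnc2, fast genes that varied together over the libraries, are printed with those of the slow Myh7 and Tnnc1. Capitals mark matches, on either strand, to 5 motifs. These were the E-box CAGCTG, the E-box variant CACCTG, the muscle-specific box CATTCC, the promoter box TATAAA, and the core of the MEF2 site (CTA, then any 4 bases, then TAG). The promoters lie at chr11:67237562-67237861 (Myh4, plus strand), chr2:164779685-164779984 (Tnnc2, minus strand), chr14:54994500-54994799 (Myh7, minus strand, 1 of 2 start sites) and chr14:31208062-31208361 (Tnnc1, plus strand).
Myh4: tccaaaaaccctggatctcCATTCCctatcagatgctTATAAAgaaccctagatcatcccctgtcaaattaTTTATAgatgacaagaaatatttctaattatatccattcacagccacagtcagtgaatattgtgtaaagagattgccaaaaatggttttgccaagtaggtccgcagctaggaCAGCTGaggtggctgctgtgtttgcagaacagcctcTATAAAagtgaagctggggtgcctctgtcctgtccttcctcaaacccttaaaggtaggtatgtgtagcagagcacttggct
Tnnc2: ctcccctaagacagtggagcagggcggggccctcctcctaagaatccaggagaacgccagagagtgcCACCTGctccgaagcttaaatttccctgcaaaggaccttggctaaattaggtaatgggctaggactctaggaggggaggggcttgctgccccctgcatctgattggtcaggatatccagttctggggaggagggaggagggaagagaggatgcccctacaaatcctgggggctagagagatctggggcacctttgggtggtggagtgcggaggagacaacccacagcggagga
Myh7: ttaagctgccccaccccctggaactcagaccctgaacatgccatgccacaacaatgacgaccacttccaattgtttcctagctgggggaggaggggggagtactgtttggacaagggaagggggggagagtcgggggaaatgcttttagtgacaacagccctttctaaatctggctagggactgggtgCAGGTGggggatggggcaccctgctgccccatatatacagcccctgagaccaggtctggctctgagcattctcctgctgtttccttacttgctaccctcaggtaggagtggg
Tnnc1: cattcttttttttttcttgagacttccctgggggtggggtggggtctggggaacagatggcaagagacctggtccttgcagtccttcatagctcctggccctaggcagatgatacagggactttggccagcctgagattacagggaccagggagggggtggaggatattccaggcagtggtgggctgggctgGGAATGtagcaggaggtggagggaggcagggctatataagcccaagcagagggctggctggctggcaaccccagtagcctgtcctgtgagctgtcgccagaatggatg

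TATAAA was found at 3 of the 4 fast start sites (Myh1, Myh2 and Myh4) and at 1 of the 6 slow ones (Tnnt1), against 13.6% of the 32851 promoters of the table. The match of Myh2 lay 10 bases after the annotated start. Only exact matches were counted, so similar runs of bases in the other windows were missed. CACCTG was found at 1 fast and 4 slow start sites (20.2% of all promoters), CAGCTG at 1 fast and 2 slow ones (16.3%), and CATTCC at 2 fast and 2 slow ones (14.7%). The windows of the Myh7 start sites overlap, as do those of Tnni1, so the same site was counted more than once. By gene, CACCTG was found in 3 slow genes, CAGCTG in 1 and CATTCC in 2. The MEF2 core was found in none of the 10 windows and in 3.69% of all promoters. Myh4 and Tnnc2 had no motif in common among these 5.

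The gene counts of a library summed to 63235040 to 82824942, and the 10 members took between 0.000889% and 0.0585% of them (median 0.00656%). Sensory neuron genes were high in every library, with summed FPKM (fragments scaled by gene length and library size, a level that can be compared between genes) from 3322 to 3926 for 10 genes. Levels between genes are compared in FPKM throughout, and differences between groups come from the counts. In bulk RNA, more fibers and more RNA per fiber cannot be told apart. The sex read from sex-linked genes matched the label in 18 of 18 libraries, and no library was identical to another.

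Fast genes made up most of the members' signal in every library. They held from 64.7% (fracture plus PDX male 2) to 99.3% (fracture male 3) of the members' summed FPKM, with a median of 92.7%, and were above 50% in 18 of 18 libraries and above 90% in 11. By group, the fast share was lowest 80.5%, median 89.4% and highest 97.5% in sham, 90.5%, 96.8% and 99.3% in fracture, and 64.7%, 78.4% and 98.6% in fracture plus PDX. The 3 ranges overlapped. In the same order, group medians were 14.6, 65.1 and 8.74 FPKM for the fast sum and 1.08, 1.26 and 1.42 for the slow sum. The share thus differed between groups mainly with the fast level, and is not read as a difference in fiber type. The library with the lowest share rested on 701 member reads, of which 66.8% were fast (Wilson 95% interval 63.2% to 70.1%, counting error only), and the library with the highest on 45900.

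**Figure D1:**
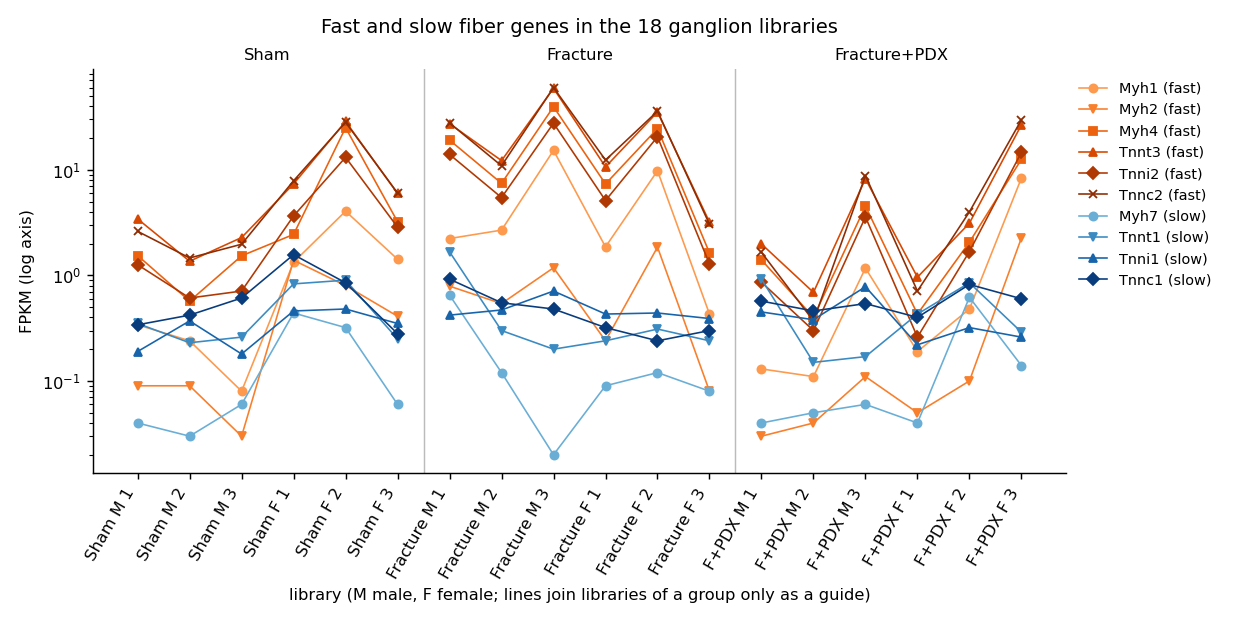
FPKM (log axis) of the 10 members in each of the 18 libraries, with fast genes in orange and slow genes in blue. The fast genes move together over a wide range, with Tnnc2 from 0.37 to 59.9, and the slow genes stay at or below 1.67.

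The predominance of fast genes held within each protein family. Among the 4 myosins, Myh1, Myh2 and Myh4 held 81.0% to 99.96% of the FPKM (median 97.8%). Several fast myosins are pooled against Myh7 alone here, so equal levels per gene would already give them the larger share. Among the troponins the fast genes held 57.9% to 99.1% (median 91.2%). Tnnt3 held 68.3% to 99.7% of troponin T, and it was the larger of the pair in all 18 libraries. Tnni2 held 44.1% to 98.3% of troponin I, and Tnnc2 held 44.6% to 99.3% of troponin C, each being the larger of its pair in 17 libraries. The exception for both was fracture plus PDX male 2, the library with the least fast signal.

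**Figure D2:**
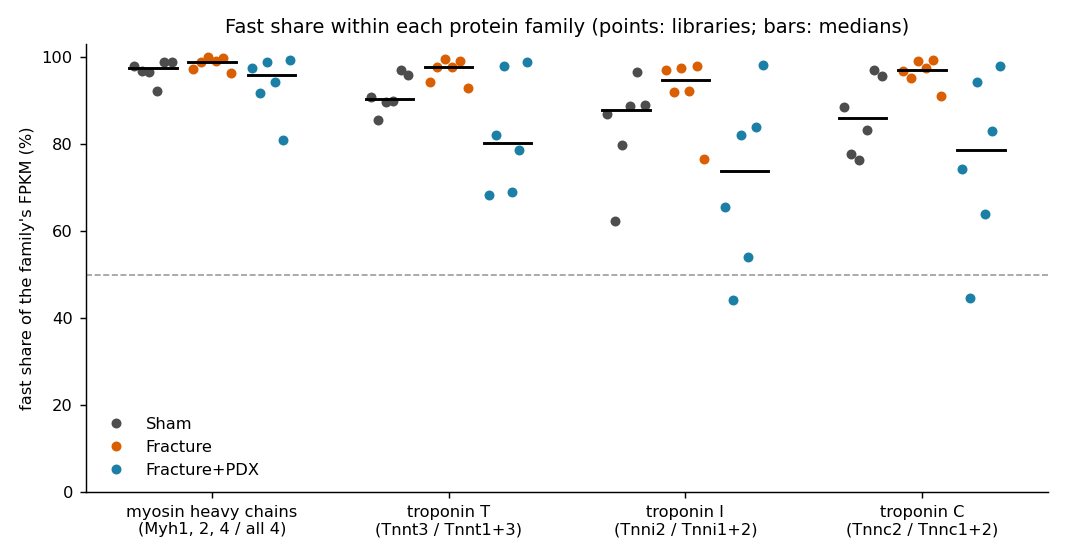
Share (%) of each family's FPKM held by the fast genes, for 6 libraries per group, with bars at the medians and a dashed line at 50%. Only 2 points, troponin I and troponin C of fracture plus PDX male 2 at 44.1% and 44.6%, lie below the line. For the myosins, where several fast genes are pooled against Myh7, equal levels per gene would lie above it.

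Myh4 was the most abundant myosin in every group. It held a median of 69.8% of the FPKM of the 4 myosins over the 18 libraries (43.6% to 90%), Myh1 19.8% (4.71% to 35.8%), Myh2 4.04% (1.76% to 24.8%) and Myh7 2.25% (0.0358% to 19.0%). Sham female 1 stood apart, with the lowest Myh4 share (43.6%), the highest Myh2 share (24.8%) and a Myh7 share of 7.86%. Fracture plus PDX female 2 had the highest Myh7 share, 19.0%, and Myh4 still held more than the other 3 together there.

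**Figure D3:**
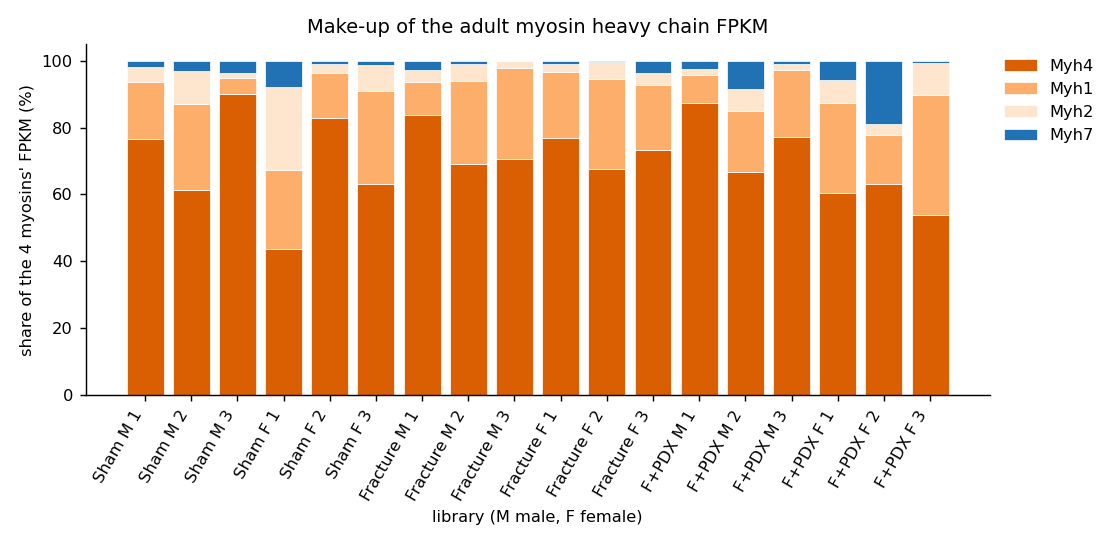
Share (%) of the summed FPKM of Myh4, Myh1, Myh2 and Myh7 in each library. Myh4 holds over 50% in 17 of 18 libraries, and the Myh7 share is highest in fracture plus PDX female 2 (19.0%), fracture plus PDX male 2 (8.33%) and sham female 1 (7.86%).

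The fast myosins spanned a wide range within every group. Myh4 FPKM was lowest 0.57, median 1.99 and highest 25.0 in sham, 1.63, 13.3 and 39.5 in fracture, and 0.40, 1.73 and 12.5 in fracture plus PDX mice. Myh1 FPKM was 0.08, 0.835 and 4.05 in sham, 0.43, 2.46 and 15.2 in fracture, and 0.11, 0.335 and 8.33 in fracture plus PDX. Myh2, the least abundant fast myosin, was at 0.03, 0.25 and 1.39 in sham, 0.08, 0.665 and 1.85 in fracture, and 0.03, 0.075 and 2.26 in fracture plus PDX. For all 3 genes the groups overlapped. Fracture male 3 was the highest library for Myh1 and Myh4, whereas fracture plus PDX female 3 was the highest for Myh2.

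Among the fast troponins, Tnnt3 and Tnnc2 had higher group medians of FPKM than Myh4, and Tnni2 was at a level between Myh1 and Tnnt3. Tnnt3 FPKM was lowest 1.36, median 4.69 and highest 28.6 in sham, 3.19, 19.7 and 59.0 in fracture, and 0.69, 2.55 and 26.6 in fracture plus PDX. Tnni2 FPKM was 0.61, 2.06 and 13.1 in sham, 1.28, 9.71 and 27.6 in fracture, and 0.26, 1.27 and 14.6 in fracture plus PDX. Tnnc2 FPKM was 1.46, 4.31 and 28.1 in sham, 3.04, 20.03 and 59.9 in fracture, and 0.37, 2.82 and 29.7 in fracture plus PDX. The same library was highest for all 3 genes within a group, namely sham female 2, fracture male 3 and fracture plus PDX female 3, and the groups overlapped. Counts ran from 27 reads (Tnnc2) to 8106 reads (Tnnt3) per library.

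Tnni1 and Tnnc1 were low and varied less between libraries. Tnni1 FPKM was lowest 0.18, median 0.36 and highest 0.48 in sham, 0.39, 0.435 and 0.71 in fracture, and 0.22, 0.35 and 0.78 in fracture plus PDX. Tnnc1 FPKM was 0.28, 0.515 and 1.57 in sham, 0.24, 0.40 and 0.92 in fracture, and 0.40, 0.555 and 0.82 in fracture plus PDX. Neither gene was at or under 3 reads in any library, the lowest counts being 52 for Tnni1 and 23 for Tnnc1.

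Myh7 and Tnnt1 were low in most libraries and several times higher in a few. Myh7 FPKM was lowest 0.03, median 0.06 and highest 0.44 in sham, 0.02, 0.105 and 0.65 in fracture, and 0.04, 0.055 and 0.62 in fracture plus PDX. Its highest values were in fracture male 1 (480 reads), fracture plus PDX female 2 (439 reads), sham female 1 (325 reads) and sham female 2 (242 reads), and no other library had more than 93 reads. Tnnt1 FPKM was 0.23, 0.305 and 0.90 in sham, 0.20, 0.27 and 1.67 in fracture, and 0.15, 0.36 and 0.92 in fracture plus PDX. The same 4 libraries were among the 5 highest for Tnnt1, together with fracture plus PDX male 1, which had 0.92 FPKM of Tnnt1 and 0.04 of Myh7. Myh6, the heart myosin with which Myh7 shares the most sequence, lay between 0.56 and 1.05 FPKM in all 18 libraries.

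Summed over genes, the fast level varied 106-fold between libraries and the slow level 3.98-fold. The fast sum was lowest 4.33, median 14.6 and highest 99.7 FPKM in sham, 9.65, 65.1 and 202 in fracture, and 1.91, 8.74 and 94.0 in fracture plus PDX. The slow sum was 0.92, 1.08 and 3.30 FPKM in sham, 1.01, 1.26 and 3.66 in fracture, and 1.04, 1.42 and 2.61 in fracture plus PDX. The 2 libraries with the highest fast sums, fracture male 3 and fracture female 2, had slow sums of 1.41 and 1.11, ranks 8 and 10 of 18. The highest slow sum, 3.66 in fracture male 1, came with a fast sum of 91.0 (rank 5). The ratio of fast to slow ran from 1.84 to 143.

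**Figure D4:**
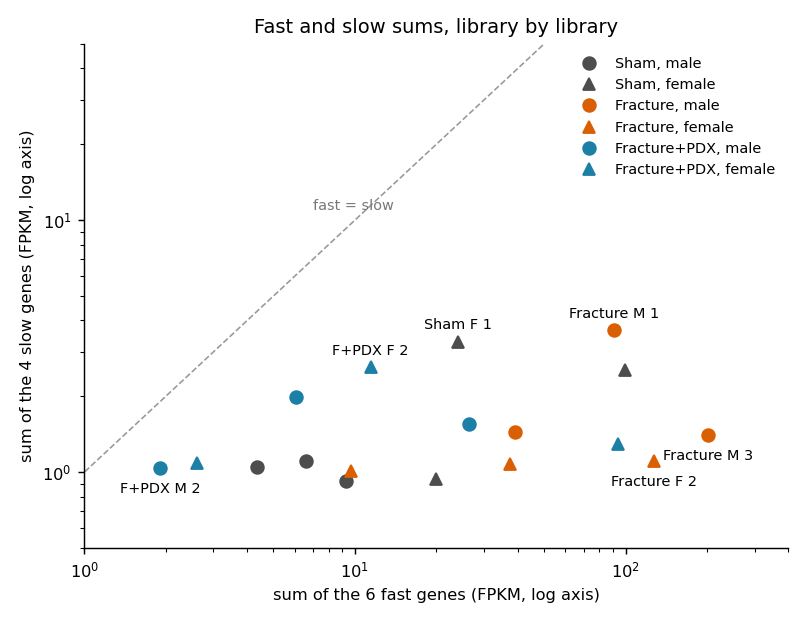
Sum of the 6 fast genes (horizontal axis) and of the 4 slow genes (vertical axis) in FPKM, both on log axes, for the 18 libraries, with color for the group and shape for the sex. All points lie below and to the right of the dashed line of equal sums, where the fast sum is the higher, and the fast sum spreads from 1.91 to 202 while the slow sum spreads from 0.92 to 3.66.

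Fast genes followed each other over the libraries more closely than slow genes did. Over the 18 libraries, Pearson correlations of log2 CPM (counts scaled to library size) between 15 pairs of fast genes were from 0.81 to 0.99 (median 0.95), highest for Tnnt3 with Tnni2 and with Tnnc2 and lowest for Myh2 with Myh4. Deviations from the group means gave 0.77 to 0.99. The 24 pairs of a fast and a slow gene had correlations from 0.02 to 0.49 (median 0.25). Among the 6 pairs of slow genes, Myh7, Tnnt1 and Tnnc1 were correlated with each other at 0.65 to 0.72, and Tnni1 with them at -0.05 to 0.15. Each correlation shares its libraries and their depth with the others, so these values are descriptions.

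The genes most like the members were chosen by Pearson correlation over the 18 libraries among 21330 other genes. Closest to the mean of the fast genes were Acta1 (skeletal actin, r = 0.994), Atp2a1 (the calcium pump of fast fibers, 0.994), Ckm (muscle creatine kinase, 0.993), Tcap (0.986) and Myl1 (a fast myosin light chain, 0.985). Acta1 ran from 2.29 to 177 FPKM. Closest to the mean of the slow genes was Myl2, the light chain of slow fibers and of the heart ventricle (r = 0.83, 0 to 0.95 FPKM). It was followed by Hspd1-ps3 (0.83), Sp9 (0.80), Id1 (0.77) and Id2 (0.76), which are not genes of the contractile apparatus.

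Fracture was compared with sham in all genes (6 against 6 mice, edgeR's quasi-likelihood test with sex as a covariate). Of the 10 members, 0 passed an adjusted p-value under 0.05, against 603 of 20659 genes tested (2.92%), and 0 had an unadjusted p-value under 0.05, against 18.5% of genes. The second count depended on single libraries: in edgeR it was 7 of 10 without fracture female 3 and 6 of 10 without sham female 2, with 0 called in both, and in DESeq2 it was 6 of 9. The log2 fold changes of the 6 fast genes lay between 1.55 and 2.74 with standard errors from 1.02 to 1.25. Myh1, with 2.74 (standard error 1.22, adjusted p = 0.275, edgeR), and Tnni2, with 2.24 (standard error 1.06, adjusted p = 0.304, edgeR), had the largest. Myh4 was at 2.12 (standard error 1.25, adjusted p = 0.420, edgeR) and Tnnc2 at 2.09 (standard error 1.03, adjusted p = 0.325, edgeR), while Tnnt3 was at 1.97 and Myh2 at 1.55. By this test no member differed beyond the spread between mice. When 1 library was left out, Myh1 ranged from 1.98 to 3.34, Myh2 from 1.05 to 2.12, Myh4 from 1.57 to 3.16, Tnnt3 from 1.51 to 2.62, Tnni2 from 1.81 to 2.88 and Tnnc2 from 1.63 to 2.73. The highest of these values came without sham female 2 (Myh4, Tnnt3, Tnni2 and Tnnc2) or without fracture female 3 (Myh1 and Myh2). In limma on log2(FPKM + 1), which shrinks low genes, Myh1 was at 1.23 and Myh2 at 0.27. In DESeq2, Myh1 alone passed, with a log2 fold change of 2.89, and 1506 genes were called.

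The slow genes lay nearer to zero in the same comparison. The log2 fold change was 0.53 for Tnni1 (adjusted p = 0.293 in edgeR, standard error 0.26), with Myh7 at 0.48 (standard error 1.07), Tnnt1 at 0.04 (standard error 0.67) and Tnnc1 at -0.53 (standard error 0.47). Without fracture male 1, the library with the most Myh7 and Tnnt1, these 2 genes were at -0.56 and -0.79. The median log2 fold change was 2.11 for the fast and 0.26 for the slow genes, against 0.00 for all genes tested. The fracture libraries also entered the contrast that led to the choice of the genes. In the same comparison, 8 of 8 neutrophil genes had negative log2 fold changes (median -0.78) and 7 of 7 red blood cell genes did (median -0.53), with 0 called, and their part in the members' values was not tested.

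Fracture plus PDX was compared with sham in the same way, and the 2 comparisons share the 6 sham libraries. Again 0 of the 10 members passed (4.5% of 20574 genes did), and 0 had an unadjusted p-value under 0.05 (18% of genes). The log2 fold changes lay between -0.14 and 0.72 for the fast genes, with standard errors from 0.88 to 1.01, and between -0.18 and 0.23 for the slow genes. Myh1 was at 0.72 (standard error 0.98, adjusted p = 0.777, edgeR), and without fracture plus PDX female 3, the library with the most Myh1 in its group, it was at -0.47. Both Tnnt3 (0.08) and Tnni2 (0.29) also took the other sign in fits without the sex covariate, at -0.22 and -0.05, so no direction is given for the members in this comparison.

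Between fracture plus PDX and fracture mice, the contrast that led to the choice, 0 of 20562 genes passed in edgeR (0%), 1113 had an unadjusted p-value under 0.05, and DESeq2 called 10. These counts are over all genes, and nothing about the members is read from them. The 6 fast genes had log2 fold changes from -2.27 (Myh4, standard error 1.09) to -1.67 (Myh2, standard error 1.39). The slow genes were at -0.43 (Myh7), -0.31 (Tnni1), 0.10 (Tnnt1) and 0.36 (Tnnc1). Myh7 went to 0.60 without fracture male 1, and Tnnt1 went to -0.22 without fracture plus PDX male 1, so neither has a stable sign. Without fracture plus PDX female 3 the median of the 10 members went from -1.77 to -3.07, and in limma on log2(FPKM + 1) it was -0.83, with Myh2 at -0.39. Beside these values, 8 of 8 neutrophil genes had positive log2 fold changes in this contrast (median 1.13), 8 of them with an unadjusted p-value under 0.05, and 7 of 7 red blood cell genes were positive (median 0.28). Of the 8 fat cell genes, 1 was positive (median -0.16), and their sum was highest in fracture plus PDX female 3. None of these genes was called, and their part in the members' values was not tested.

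**Figure D5:**
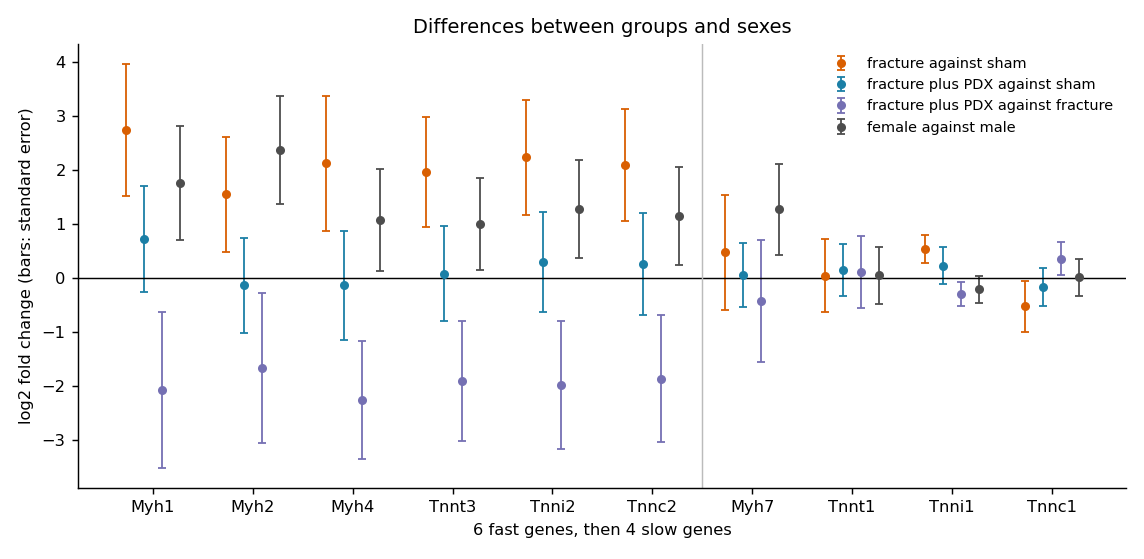
Log2 fold changes (points) with standard errors (bars) from edgeR for the 6 fast and the 4 slow genes in 4 comparisons. The fast genes sit between 1.55 and 2.74 for fracture against sham. They sit between -2.27 and -1.67 for fracture plus PDX against fracture, the contrast that led to the choice of the genes. In these 2 comparisons the slow genes sit nearer to zero, which does not hold for every slow gene in the others.

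Females were compared with males over the 18 libraries with group as a covariate, a contrast in which each sex has 9 mice. Of the members, 0 passed an adjusted p-value under 0.05 (0.297% of 20527 genes did), and 1, Myh2, had an unadjusted one (10.4% of genes). For Myh2 the females lay 2.37 above the males on the log2 scale (adjusted p = 0.417, edgeR, standard error 0.998). The other 5 fast genes were between 1.002 and 1.76, and the slow genes between -0.21 (Tnni1) and 1.27 (Myh7, standard error 0.84). Without fracture plus PDX female 3, the 6 fast genes were between 0.23 (Tnnt3) and 1.20 (Myh2). Without the group covariate, Myh2 was at 1.28, Myh4 at 0.0374, Tnnt3 at 0.04, Tnnc2 at 0.12, Tnni2 at 0.19 and Myh1 at 0.30. In limma on log2(FPKM + 1), Myh2 was at 0.37 and Myh7 at 0.12, and Myh7 was at 0.63 without fracture plus PDX female 2. In the same contrast, 8 of 8 fat cell genes were positive (median 0.54, 2 with an unadjusted p-value under 0.05) and 7 of 7 red blood cell genes negative (median -0.17), with 0 called, and their part in the members' values was not tested.

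The levels of the sexes were also read within each group. In sham mice, all 3 females lay above all 3 males for each of the 6 fast genes and for 0 of the 4 slow genes, against 7.3% of 21340 genes. The 6 fast genes vary together over the libraries, so they are not independent observations, and this count is not read as an enrichment. The fast sum was 19.9, 24.0 and 99.7 FPKM in sham females and 4.33, 6.60 and 9.26 in sham males. In fracture mice it was 9.65, 37.5 and 128 in females and 39.2, 91.0 and 202 in males, which overlap. The mean log2 CPM was lower in fracture females than in fracture males for 10 of 10 members, and only Tnnc1 did not overlap between the sexes (6.1% of genes had every female below every male). In fracture plus PDX mice the fast sum was 2.60, 11.4 and 94.0 in females and 1.91, 6.05 and 26.4 in males, and Tnni1 was the member whose females all lay below the males (6.86% of genes).

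The interaction of sex with fracture, added after the levels by sex had been seen, was negative for 10 of 10 members, from -4.08 to -1.13 on the log2 scale. It passed an adjusted p-value under 0.05 for 0 members (0% of 20659 genes, edgeR) and had an unadjusted p-value under 0.05 for 9 (7.2% of genes). The exception was Myh1, with an unadjusted p-value of 0.0501 (edgeR). The members are correlated, so these 9 are not independent observations. The adjusted p-values of the members lay between 0.603 and 0.693 (edgeR), and no difference between the sexes was called.

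Other genes of the fiber types were read from lists chosen with earlier results in view. Of 10 other fast-fiber genes, 0 were called in fracture against sham (2.92% of all genes were), and 10 had positive log2 fold changes (median 1.72). An unadjusted p-value under 0.05 (edgeR) was found for 2 of them, near the 18.5% of all genes. Atp2a1, the calcium pump of fast fibers, was at 0.71 to 69.7 FPKM with a log2 fold change of 2.19 (standard error 1.29). Pvalb, a calcium buffer of fast fibers and also of proprioceptive neurons, was at 49.6 to 110 FPKM with a log2 fold change of 0.35 (standard error 0.16), and Eno3, the muscle enolase, was at 3.81 to 21.8 FPKM with 0.70 (standard error 0.47). Of 12 genes used by all skeletal fibers, 12 had positive log2 fold changes (median 1.69) and 0 were called. These 12 had a summed FPKM from 5.25 to 295 and a Spearman correlation of 0.99 with the fast sum over the 18 libraries.

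Of 10 other slow-fiber genes, 0 were called in fracture against sham, with a median log2 fold change of 0.06 and 6 of 10 positive. Atp2a2, a calcium pump used in slow fibers and in most other cells, was at 52.2 to 65.3 FPKM, Tpm3 at 6.97 to 16.4 and Casq2, the calsequestrin of slow fibers and heart, at 0.60 to 2.35. For Casq2 the difference was -0.79 on the log2 scale (adjusted p = 0.0689, edgeR). Mybpc1, listed with the slow fibers, ran from 0 to 3.09 FPKM and had a Spearman correlation of 0.90 with the fast sum and 0.39 with the slow sum. The genes of developing and regenerating fibers were low, with 10 genes summing to 0.56 to 1.78 FPKM, led by Mymk (0.16 to 0.67), Mymx (0.07 to 0.86) and Actc1 (0 to 0.35). The embryonic myosin Myh3 and the perinatal myosin Myh8 stayed at or under 0.12 and 0.23 FPKM. Of these genes 5 could be tested, and 0 were called.

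Markers of other tissues did not follow the fast sum as closely. The summed level of 8 heart genes was 7.17 to 14.3 FPKM, with a Spearman correlation of 0.19 with the fast sum. Its most abundant genes were Nppb, Ryr2 and Myh6, while Tnnt2 stayed at or under 0.08 and Mybpc3 at or under 0.05 FPKM. Nppb alone was at 4.28 to 10.95 FPKM, so the heart sum rests largely on 1 gene. The 8 smooth muscle genes, led by Acta2, Tagln and Smtn, summed to 75.4 to 121 FPKM (0.01). The 8 fat cell genes, led by Cfd, Fabp4 and Adipoq, summed to 5.04 to 57.7 FPKM (0.36), with the highest values in fracture plus PDX female 3 (57.7) and sham female 3 (41.2). Fracture plus PDX female 3 was also the library with the highest fast sum in its group (94.0 FPKM), whereas the fast sum of sham female 3 was 19.9 FPKM. The 8 bone and cartilage genes, led by Comp, Ibsp and Col2a1, summed to 13.9 to 27.7 FPKM (-0.03). The 8 neutrophil genes, led by S100a9, Ngp and S100a8, summed to 74.9 to 430 FPKM (-0.43), and 7 red blood cell genes, led by Hba-a1, Hbb-bs and Hba-a2, to 580 to 3383 FPKM (-0.41). The 10 sensory neuron genes, led by Tubb3, Prph and Nefh, had a correlation of 0.22, and the 8 oligodendrocyte and spinal cord genes, led by Mag, Gfap and Aqp4, one of -0.26. Mag alone was at 8.99 to 16.7 FPKM, and Mog, Opalin, Olig2 and Chat stayed at or under 0.13, so that sum rests largely on Mag. With the slow sum, the correlations of these lists ran from -0.67 (oligodendrocyte and spinal cord genes) to 0.46 (sensory neuron genes). In fracture against sham, 3 of the 10 sensory neuron genes (Nefh, Scn9a and Tubb3) were called higher, and none of the other lists above held a called gene. Of all genes tested, 2.92% were called there in either direction. In fracture plus PDX against sham, Tubb3 and 1 glial gene (Kcnj10) were called higher, and 1 glial gene (Sox10) and 2 cartilage genes (Col2a1 and Acan) lower. The share of all genes called in that comparison was 4.5%. The part of other tissues in the members' levels was not tested.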

How the data were processed

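Bulk poly(A) RNA-seq of L3–L5 DRG was available as 18 libraries, 6 per group. Per the labels, reads were processed with cutadapt 1.10, FastQC, HISAT2 and StringTie on mm10. The authors deposited raw counts per gene, without normalization, and FPKM values per gene, scaled by transcript length and library size. Replicates were not pooled. The columns headed Con were read as the sham group, since the other column names gave fracture and fracture plus PDX.

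Group differences were fitted to the counts with edgeR 4.0.16 under R 4.3.3 (filterByExpr with minimum count 10 and minimum total count 15, TMM, robust quasi-likelihood fit, Benjamini-Hochberg over all genes), with sex or group as a covariate. A gene was called at an adjusted p-value under 0.05. Alternatives used DESeq2 1.42.0 and limma 3.58.1. FPKM gave shares and levels between genes, with no test. Correlations used log2 CPM with a prior count of 2. Fits were also run on simulated data, and the outcome is not reported here. P-values measure the spread between mice as labelled.

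The members and lists were chosen with earlier results of these data known. Named genes were the 10 members, the 5 genes most correlated with the fast and with the slow members, the 3 genes of each list with the highest median FPKM and any called list gene. Mybpc1, Tnnt2, Mybpc3, Myh3, Myh8, Mog, Opalin, Olig2 and Chat were named after their values had been seen. The sex interaction was added after seeing the data. Coding sequences came from GENCODE M21 and promoters from RefSeq; protein sequences were not used here. The summed level of 1 list is not reported here.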

Additional observations from a re-analysis of the deposited data

Results flagged for a closer look

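In each group of 6 libraries, the highest or lowest library was compared with its neighbor by Dixon's criterion (the gap set against the group's range), and 18 of 39 groups held a library that stood apart, where chance gives about 1 in 20 for normally distributed values. FPKM values are skewed, for which chance gives more, and the genes are correlated, so the number of such groups is not read as a result. Fracture plus PDX female 3 stood above its group for all 6 fast genes, with FPKM of 8.33 for Myh1, 2.26 for Myh2, 12.5 for Myh4, 26.6 for Tnnt3, 14.6 for Tnni2 and 29.7 for Tnnc2. Sham female 2 stood above its group for 5 fast genes, with FPKM of 4.05 for Myh1, 25.0 for Myh4, 28.6 for Tnnt3, 13.1 for Tnni2 and 28.1 for Tnnc2.

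Among the slow genes, fracture male 1 stood apart for Myh7 (0.65 FPKM) and Tnnt1 (1.67 FPKM), fracture plus PDX female 2 for Myh7 (0.62 FPKM), and fracture male 3 for Tnni1 (0.71 FPKM). Fracture female 3 had the lowest fast share of its group (90.5% of the members' FPKM and 89.0% of the troponin FPKM). Sham female 1 had the lowest fast share of myosin FPKM in sham (92.1%).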

How the results depend on the processing

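Of 930 values of single genes under the alternatives, 843 kept their sign and 87 changed it (9 in fracture against sham, 50 in fracture plus PDX against sham, 19 in females against males and 9 in fracture plus PDX against fracture), and 1 passed the threshold. Of the counts and shares, 160 were kept, 4 moved and 1 rose. DESeq2 called 1 member (Myh1, log2 fold change 2.89) in fracture against sham. Built on geometric means of log2(FPKM + 0.1), which weigh low genes more, the median fast share became 79.2% (sham), 91.7% (fracture) and 62.9% (fracture plus PDX).

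The median difference of the 10 members between fracture plus PDX and fracture lay between -3.07 (without fracture plus PDX female 3) and -1.34 when 1 library was left out, and between -2.86 (replicate block) and -0.83 (limma on log2(FPKM + 1)) under the other alternatives. Signs changed only for values that were not called, and the cause was not tested. For fracture against sham, Tnnt1 was at -0.21 with the replicate block, -0.0194 in limma on log2(FPKM + 1) and -0.13 on log2(FPKM + 0.1). For fracture plus PDX against sham, the replicate block gave -0.55 for Myh1, -0.63 for Tnnt3, -0.55 for Tnni2, -0.72 for Tnnc2, -0.00147 for Myh7 and -0.0428 for Tnnt1. There, limma on log2(FPKM + 1) gave -0.032, -0.42, -0.24, -0.39, -0.00689 and -0.00744 for the same genes in this order, and on log2(FPKM + 0.1) -0.25, -0.61, -0.52, -0.68, -0.0631 and -0.0607. Without the sex covariate Tnnt3 was at -0.22, Tnni2 at -0.0502 and Tnnc2 at -0.0774, and in 1 fit of all 18 libraries Tnnt3 was at -0.0971. For females against males, Tnnc1 was at -0.11 with the replicate block and -0.0484 in limma on log2(FPKM + 0.1).

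Leaving out 1 library, log2 fold changes for fracture against sham ranged from -0.56 to 0.91 for Myh7 and from -0.79 to 0.28 for Tnnt1. For fracture plus PDX against sham they ranged from -0.47 to 1.101 for Myh1, -1.65 to 0.15 for Myh2, -0.77 to 0.81 for Myh4, -0.73 to 0.63 for Tnnt3, -0.58 to 0.83 for Tnni2, -0.56 to 0.79 for Tnnc2, -0.66 to 0.31 for Myh7, -0.44 to 0.33 for Tnnt1, -0.0228 to 0.41 for Tnni1 and -0.34 to 0.16 for Tnnc1. For fracture plus PDX against fracture, Myh7 ranged from -1.35 to 0.60 and Tnnt1 from -0.22 to 0.89, and Tnnt1 was also at -0.0407 without the sex covariate and at -0.0507 in 1 fit of all 18 libraries. For females against males they ranged from -0.15 to 0.57 for Tnnt1 and from -0.25 to 0.17 for Tnnc1.

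Over all genes, DESeq2 called 1506 genes in fracture against sham (603 in edgeR), 1627 in fracture plus PDX against sham (925) and 323 in females against males (61). The replicate block called 118, 486 and 19, and 31 genes were called between the sexes without the group covariate. Libraries with the same replicate number did not deviate together (correlations from -0.07 to 0.13 over 6 pairs per comparison), so the numbers were not read as pairs, and with the block 0 members were called. The slow genes rest on few reads, down to 19 for Myh7, and at 6 mice per group the fast genes' standard errors were near or above 1 on the log2 scale.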
